A study of Mus musculus with 6 samples.

Results

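The genes described here are the mouse Zfp genes whose symbol is Zfp followed by a number below 400, with Zfp36 left out because it belongs to another zinc finger family. They were taken by symbol, and 129 of the 23281 genes in the deposited table fit that rule. Values are reported for the 116 of them with a mean of at least 100 reads over the 6 libraries. The other 13 had 1.33 to 96.3 reads on average.

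The cells were mouse embryonic stem cells, female, with a 129S x Cast genome. In all 6 cultures the 129S allele of Xist carried a doxycycline-inducible TetOn promoter, and Bgl stem-loops stood at its 3' end, so no culture lacked these changes. The sample titles name the line BglHalo_Xist, and the labels do not describe its Halo part. Every culture received 1 µg/ml doxycycline for 17.5 to 20 h and then 500 µM 4-thiouridine (4sU) with doxycycline for 4 h. A single culture was collected at each washout time, after 0, 30, 60, 90, 120 or 150 min in medium with doxycycline and 50 mM uridine, which dilutes the remaining 4sU. In SLAM-seq, iodoacetamide modifies the 4sU in extracted RNA so that it is read as T-to-C (T>C) conversions. The RNA came from nuclei, so a fall in label describes loss from the nucleus, and decay and export were not told apart. There was 1 library per time and no replicate. The p-values below measure the scatter of 6 libraries around a line in time, with each gene's scatter adjusted toward that of other genes.

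Zinc finger proteins of the C2H2 kind are among the largest groups of DNA-binding proteins in mammals. Each finger folds around a zinc ion held by a pair of cysteines and a pair of histidines, and rows of fingers read DNA. Many of these proteins also carry a KRAB domain at the front, which recruits the co-repressor KAP1 (gene Trim28), and KAP1 brings the histone methyltransferase SETDB1 and heterochromatin proteins. In embryonic stem cells this system silences endogenous retroviruses and protects imprinted genes. KRAB zinc finger genes arose by repeated duplication and often lie side by side as near copies.

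The relation between neighbours can be read in the sequence. The coding sequences of Zfp93, Zfp108, Zfp109, Zfp111 and Zfp114, which lie within a stretch of chromosome 7, shared an identical run of 89 nt. It is printed from Zfp108, where it is joined from exons between chr7:24258493-24260129 on the plus strand of mm10, and its capitals mark the codons at the conserved end of the KRAB A box. The run is longer than the 81 nt reads, so a read lying wholly inside it matches each of these genes. Its effect on the counts was not measured.
Zfp108: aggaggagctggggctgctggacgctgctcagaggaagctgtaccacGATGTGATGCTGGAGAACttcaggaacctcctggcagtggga

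AU-rich elements in 3' UTRs are known for binding proteins that speed up mRNA decay. The nonamer TTATTTATT, searched on the transcript strand with overlaps allowed, was found in the 3' UTR of 14 reported members (12.1%), and in 7.34% of the 11301 genes that had an annotated coding transcript and passed the same minimum. Median 3' UTR lengths were 1144.5 nt for the members and 986 nt for those genes. The 4 sites below come from the carriers with the shortest half-lives of label (Zfp113 and Zfp11), the carrier with the longest (Zfp143) and the carrier without a called fall (Zfp365). Capitals mark the nonamer, and all sites are in exons.
Zfp113, chr5:138142580-138142608, minus strand: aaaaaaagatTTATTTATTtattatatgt
Zfp11, chr5:129655961-129655989, minus strand: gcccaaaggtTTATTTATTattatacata
Zfp143, chr7:110095296-110095324, plus strand: gttgtgtaaaTTATTTATTtttgctccta
Zfp365, chr10:67886325-67886353, minus strand: ttgaattttaTTATTTATTttgtaagggg

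Libraries held 18558073 to 28535162 reads, of which the reported members took 0.497% to 0.577%. The stem cell markers Pou5f1, Nanog, Sox2, Klf4, Esrrb, Tdgf1, Dppa5a and Utf1 were all detected in every library and summed to 2395 to 2816 CPM (counts scaled to library size). The feeder fibroblast markers, 8 genes, summed to 265 to 406 CPM, and 1 of them was at 0 in some library. The 30 and 60 min libraries went against the order of time for the members. In 111 of the 116, the labelled share was higher at 60 than at 30 min, a pattern found in 47.1% of all 11462 genes tested. It was also found in 159 of the 185 Zfp genes numbered 400 and above that passed the same minimum of reads. The T>C conversion rate pooled over all genes was higher at 60 min (4.11%) than at 30 min (2.69%) too. The broken order was thus a trait of the libraries and not particular to the members. The table's columns carry a number without a unit, and reading it as the washout time is an inference from the sample titles. Values with these 2 times exchanged are given beside the main results.

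Almost all of these genes lost label during the washout, and they started with more of it than most genes. The labelled share is the authors' posterior mean of the fraction of a gene's reads that come from RNA made during the pulse. Its median over the 116 reported members was 85.7%, 57.4%, 74.7%, 39.2%, 21.4% and 13.4% from the 0 to the 150 min library. Over all genes tested the medians were 46.8%, 45.8%, 44.5%, 39.3%, 27.7% and 21.1% at the same times. The members thus stood above the middle of all genes at the end of the pulse and below it at 120 and 150 min. At 0 min, 112 members were above the median of all genes, and 84 had a share of at least 80%, a level reached by 14.2% of all genes tested. By 150 min, 91 were below the median of all genes. From 60 min on, the share went down at each step in 107 of the 116, a count that was not made over all genes.

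**Figure D1:**
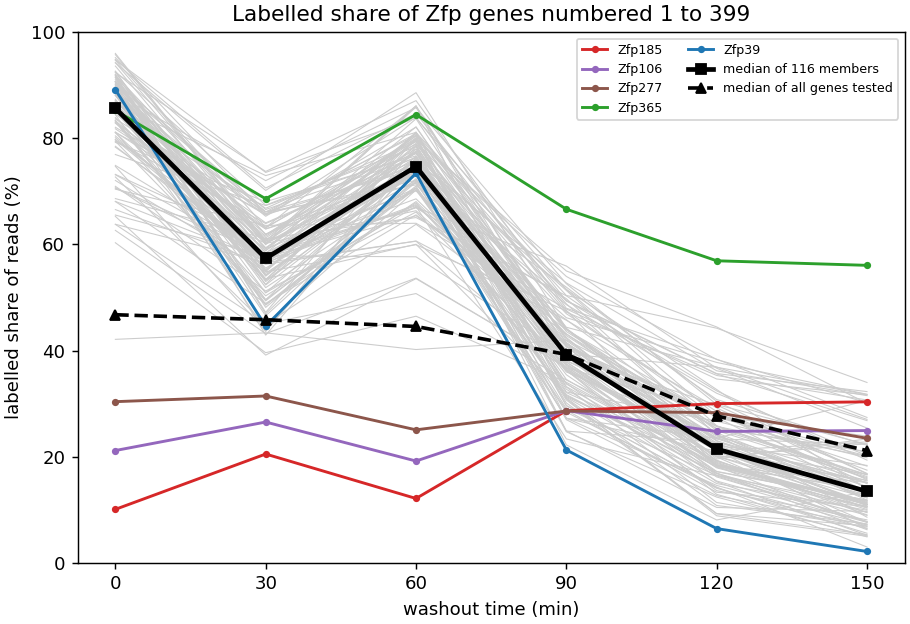
Labelled share of reads (%, y axis) against washout time (min, x axis), 1 library per time. Grey lines are the 116 reported members, coloured lines are named members, and black lines are the medians of the members (solid) and of all genes tested (dashed). The median of the members went from 85.7% to 13.4% and crossed that of all genes, while Zfp185, Zfp106 and Zfp277 started low and Zfp365 stayed high.

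The labelled share fell with time in 112 of the 116 (96.6%; limma, adjusted p below 0.05), beside 52.3% of all genes tested. It rose in 1, Zfp185, beside 1.19% of all genes. Zfp106, Zfp277 and Zfp365 were not called. The decay rate, the slope of the natural log of the share on time, had a median of 0.715 per h over the reported members, with quartiles of 0.55 and 0.863, beside 0.247 over all genes. The half-life of label, ln 2 divided by that rate, had a median of 56.2 min among the 112 that fell, beside 86.9 min among all genes that fell. It was under 60 min in 62 of the 116, beside 11.3% of all genes tested. That count depends on the fit: with the posterior weights described below, the shortest half-life of any reported member was 63.3 min. Leaving out each library in turn moved the median rate between 0.62 and 0.813 per h, and 109 members fell in every such fit. With the 30 and 60 min times exchanged, 112 fell, beside 54.5% of all genes, and the median rate was 0.747 per h, beside 0.243. The Zfp genes numbered 400 and above gave similar values, with 177 of 185 falling, a median rate of 0.667 per h and a median half-life of 60.0 min.

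The half-lives ran from 28.3 min for Zfp39 to 132.6 min for Zfp318, with quartiles of 47.9 and 72.7 min. The ranges of 1 SE of these ends, 25.4 to 31.9 min and 101 to 194 min, did not overlap. Both genes were picked as the ends of the order, so this gap does not measure the spread among members.

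The order and the sizes depend on how the libraries are weighted. Weighting each value by the authors' posterior variance gave 80 members that fell, beside 25.7% of all genes, and a median rate of 0.4004 per h, beside 0.174. For 82 of the 112 the weighted rate was lower by over 1.5 times, and across the 116 members the 2 rates had a Spearman correlation of 0.571. Zfp39 had 0.469 per h with weights in place of 1.47, a half-life of 88.7 min. Zfp300 was the fastest at 0.657 per h, a half-life of 63.3 min, so no member was under 60 min with weights. In all, 32 of the 112 fell without weights and were not called with them. Among these 32 were Zfp11, Zfp28, Zfp42, Zfp52, Zfp54, Zfp59, Zfp64, Zfp74, Zfp94, Zfp109, Zfp111, Zfp143, Zfp169, Zfp207, Zfp219, Zfp318 and Zfp384. Half-lives and ranks given elsewhere come from the unweighted fit.

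**Figure D2:**
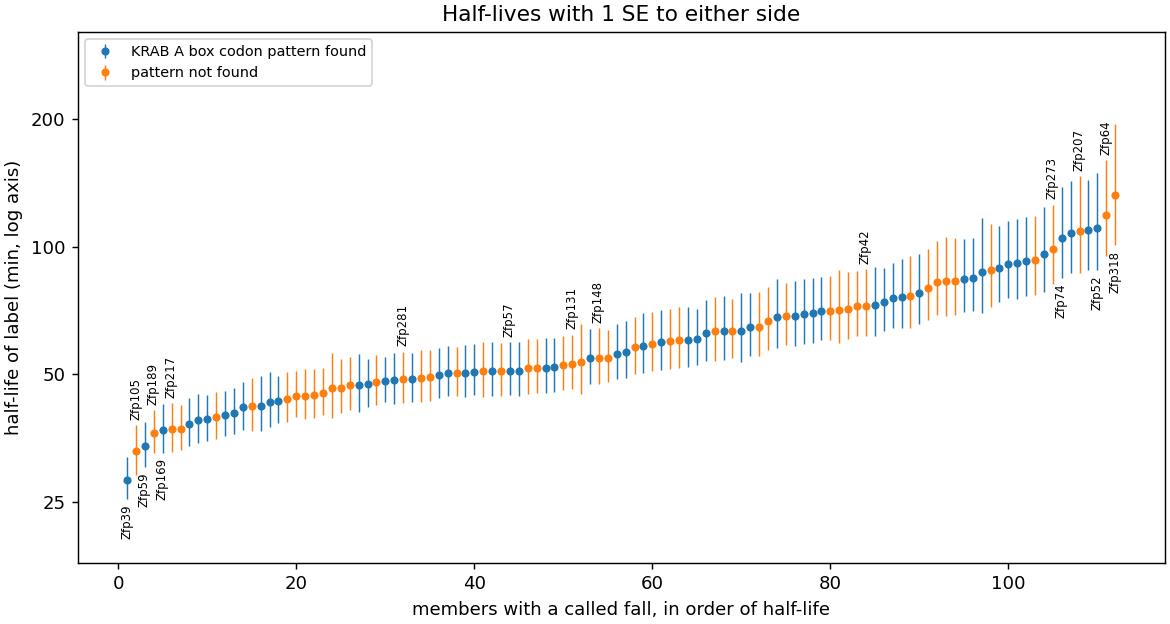
Half-life of label (min, log y axis) for the 112 members with a called fall, in order (x axis), with bars of 1 SE of the rate to either side. Colours show whether the codons of a KRAB A box were found; genes with them span 28.3 to 110.8 min and genes without them 32.9 to 132.6 min.

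The first group of genes is known from stem cells and early embryos, and all 8 of its members fell, with a median half-life of 66.5 min. Zfp42 (Rex1, a standard marker of pluripotent cells; chr8:43295063-43306980, minus strand) had the highest level of all reported members per length, at 165 CPM per kb of gene length. Zfp207 (139), Zfp106 (76.8), Zfp57 (52.6) and Zfp146 (31.7 CPM per kb) followed. Its labelled share was 88.5%, 72.0%, 85.8%, 52.6%, 29.8% and 22.3% from 0 to 150 min, highest at 0 and 60 min and lowest at 150 min. Its half-life was 72.6 min (61.5 to 88.5 min at 1 SE to either side; limma adjusted p = 0.000268). Zfp57, the KRAB protein that keeps methylation at imprinted loci (chr17:37001163-37010635, plus strand), had shares of 79.8%, 59.2%, 70.2%, 40.2%, 18.3% and 10.4%. It thus ended below Zfp42, and its half-life was 51.0 min (44.6 to 59.5 min; limma adjusted p = 6.27e-05). Zfp281, a regulator of Nanog and of the exit from pluripotency (chr1:136624901-136630053, plus strand), had shares of 86.0%, 58.0%, 76.5%, 37.1%, 16.5% and 10.6% and a half-life of 48.7 min (42.8 to 56.5 min). The intervals of Zfp57 and Zfp281 overlap, and both lie below that of Zfp42.

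Zfp217, a partner of co-repressor complexes (chr2:170108643-170148103, minus strand), was the fastest of this group without weights, and with weights its rate of 0.403 per h was below those of Zfp296, Zfp369, Zfp57 and Zfp281. Its shares were 88.1%, 55.3%, 78.5%, 36.4%, 12.9% and 4.87%, with a half-life of 37.1 min (32.8 to 42.8 min; limma adjusted p = 5.15e-05). Zfp296, a binding partner of Klf4, went from 95.2% to 19.8% with a half-life of 63.4 min, and its 90 min share was 32.2%. Gemin7 overlaps it on the opposite strand. Zfp352, an early embryonic gene, had few reads (143 to 195 per library), shares of 68.1% at 0 min and 13.4% at 150 min, and a half-life of 70.8 min. Its rate was 0.588 per h, and 0.386 without the 150 min library. Zfp110 and Zfp369, which encode related KRAB proteins that bind the neurotrophin receptor p75, had half-lives of 69.6 and 74.0 min, inside each other's range of 1 SE.

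The second group holds broadly expressed regulators of transcription and chromatin. All 11 reported genes of this list fell, with a median half-life of 59.1 min, and Zfp341 was under the minimum of reads. Zfp24 was the fastest of them, going from 91.7% to 9.43% with a half-life of 47.1 min. With weights its rate was 0.383 per h, in place of 0.883, below those of Zfp91, Zfp131, Zfp148 and Zfp292. Zfp292, a large protein of 14 finger patterns (chr4:34803113-34882960, minus strand), had shares of 82.1%, 65.6%, 74.8%, 44.0%, 21.2% and 10.3% and a half-life of 50.8 min (44.3 to 59.6 min). Zfp131, a BTB domain protein, and Zfp148 (ZBP-89), which binds GC-rich promoters, had half-lives of 52.9 and 54.6 min. Zfp91, an atypical ubiquitin ligase, and Zfp219 followed at 57.9 and 59.1 min, and the ranges of 1 SE of these 6 all overlap. Zfp143, which binds many promoters and drives small RNA genes, and Zfp384 had 63.1 and 64.8 min.

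The 3 slowest of the regulators were Zfp335, Zfp64 and Zfp318. Zfp335, a protein needed in neural progenitors, went from 68.1% to 20.9% with a half-life of 82.5 min. Zfp64 (chr2:168893331-168955587, minus strand) had shares of 70.4%, 63.6%, 64.0%, 47.8%, 34.6% and 31.6% and a half-life of 119 min (94.8 to 160 min; limma adjusted p = 0.00369). Its 30 and 60 min values were nearly equal, unlike those of most members. Zfp318, known for its part in immunoglobulin D expression in B cells (chr17:46383731-46420920, plus strand), had shares of 42.1%, 43.3%, 40.2%, 42.0%, 27.7% and 18.2%. It stayed level through 90 min and was lower only in the last 2 libraries, with a half-life of 132.6 min (101 to 194 min; limma adjusted p = 0.0143). Without the 150 min library Zfp318 was no longer called, with a rate of 0.174 per h in place of 0.314.

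Genes linked to RNA and other functions made the third group, in which 4 of 5 fell, with a median half-life of 78.2 min. Zfp207 (BuGZ, a spindle protein that stabilises the checkpoint factor Bub3; chr11:80383279-80405733, plus strand) had 8551 to 12377 reads per library and 139 CPM per kb. Its shares were 70.7%, 58.1%, 67.0%, 55.9%, 36.7% and 25.4%, and its half-life was 109 min (86.7 to 146 min; limma adjusted p = 0.00378). It too was not called without the 150 min library, at 0.27 per h in place of 0.382. Zfp326, a component of the DBIRD complex that links transcription to splicing, went from 60.3% to 13.6% with a half-life of 72.4 min. Zfp346 (JAZ), which binds double-stranded RNA, went from 66.6% to 15.6% with 76.6 min. Zfp330, a nucleolar protein in which no C2H2 finger pattern was found, went from 62.6% to 16.7% with 79.9 min. The ranges of these 3 overlap.

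The fastest reported members had lost nearly all label by 150 min. Zfp39 (chr11:58888153-58904225, minus strand), a KRAB gene with 12 finger patterns, had shares of 89.2%, 44.6%, 73.4%, 21.3%, 6.43% and 2.12%. It was left with 2.38% of its starting share, the least of all members that fell, and its half-life was 28.3 min (25.4 to 31.9 min; limma adjusted p = 5.12e-05). By unweighted decay rate it was number 5 among all 11462 genes. Zfp105 (chr9:122923072-122931028, plus strand) had shares of 91.5%, 53.4%, 79.8%, 29.6%, 14.2% and 2.96%, with a half-life of 32.9 min (29.0 to 38.0 min). Zfp59 (chr7:27838607-27856438, plus strand) had 93.6%, 59.9%, 86.1%, 30.9%, 8.85% and 4.98%, with a half-life of 34.0 min (30.2 to 38.7 min). Zfp59 shared 36.2% of its 81 nt windows with other genes, most of them with Gm7452, so its reads may be split. Zfp189 and Zfp169 followed at 36.4 and 37.0 min, with 16 and 17 finger patterns and shares of 5.05% and 5.3% at 150 min.

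Of the 6 slowest called members with at least 200 mean reads, Zfp318, Zfp64 and Zfp207 are given above, and the other 3 have 14 to 18 finger patterns. Zfp52 (chr17:21535539-21562601, plus strand) had shares of 85.3%, 61.5%, 79.7%, 55.0%, 44.5% and 30.0% and a half-life of 111 min (88.2 to 149 min; limma adjusted p = 0.00379). Without the 150 min library it was not called, at 0.283 per h in place of 0.375. Zfp74, with 18 finger patterns, went from 83.0% to 30.2% with a half-life of 105 min, and Zfp273 from 90.7% to 31.8% with 98.9 min. The shares of these 3 at 0 min were within the span of the fastest genes or somewhat below it. At 150 min these 3 had at least 30.0%, against at most 5.3% in the 6 fastest. Zfp318 and Zfp207, also among the slowest, ended below 30.0%. Both groups were picked by the slope of these same shares, so the gap at 150 min follows largely from that choice.

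**Figure D3:**
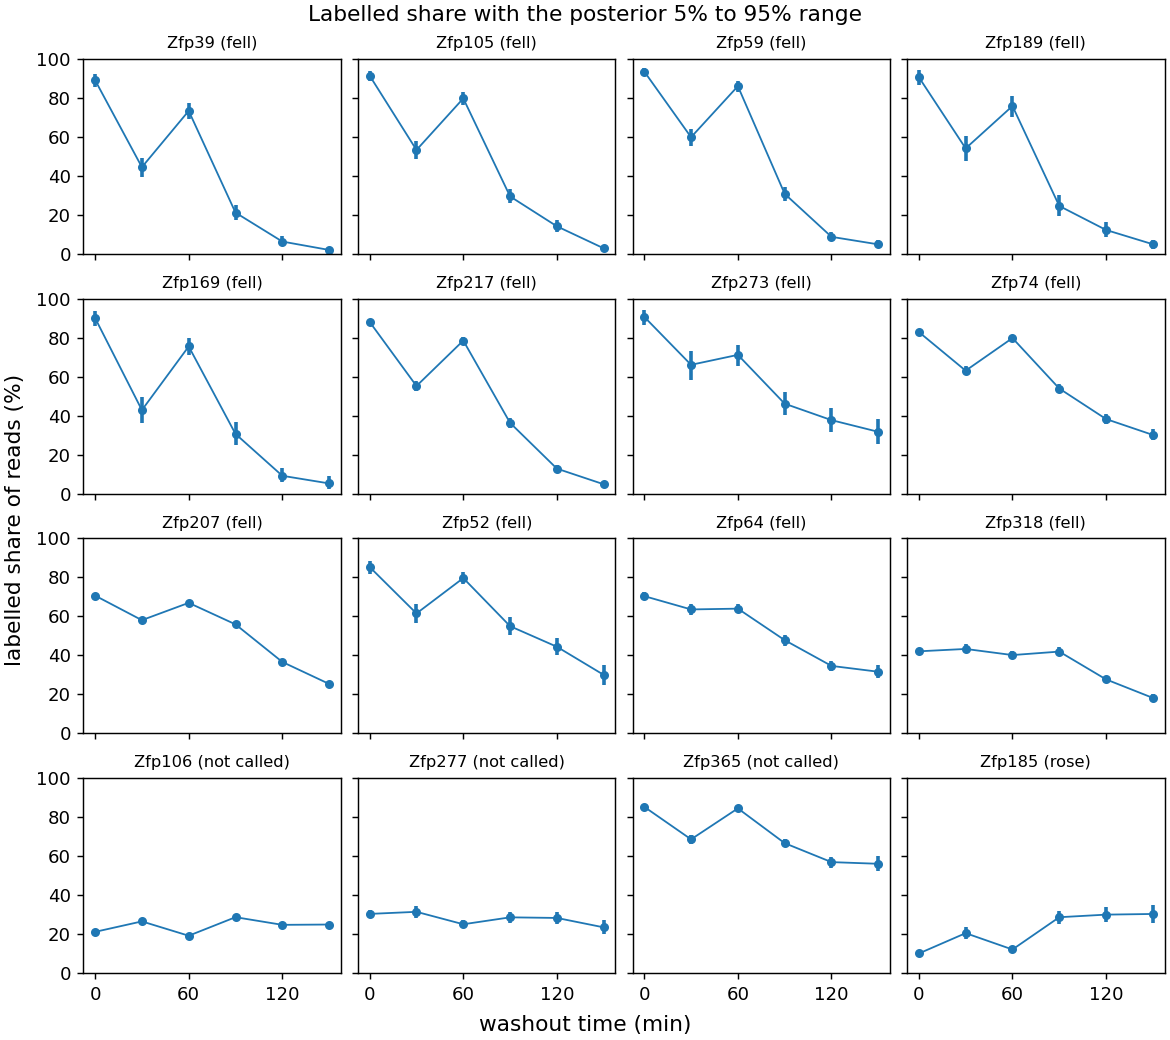
Labelled share (%, y axes) against washout time (min, x axes) for the 6 fastest and 6 slowest called members with at least 200 mean reads, the 3 members not called and Zfp185. Points are single libraries and bars the posterior 5% to 95% range; Zfp39 ended at 2.12% and Zfp365 at 56.1%.

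Zfp185, Zfp106, Zfp277 and Zfp365 were the reported members without a called fall of the share, and their patterns differed. Zfp185 encodes a LIM domain protein that binds actin, and no C2H2 finger pattern was found in it (chrX:72987339-73031543, plus strand). Its share was 10.1%, 20.5%, 12.1%, 28.7%, 30.0% and 30.3%, low at 0 and 60 min and about level from 90 min. It rose, which gives a decay rate of -0.43 ± 0.114 per h (SE; limma adjusted p = 0.00466), but it was not called without the 0 min library, and its T>C rate was 1.03% at 0 min and 1.43% at 150 min with no call (limma adjusted p = 0.479).

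Zfp106, an RNA-binding protein needed for motor neurons and muscle (chr2:120506820-120563843, minus strand), had the most reads of any member, 10931 to 22549 per library. Its share was 21.2%, 26.5%, 19.2%, 28.7%, 24.8% and 24.9%, with no order in time (limma adjusted p = 0.633). Zfp277 (chr12:40315046-40445902, minus strand), which has been linked to Polycomb at the Cdkn2a locus, had 30.4%, 31.4%, 25.1%, 28.6%, 28.3% and 23.5% (limma adjusted p = 0.449). Both genes were among the least labelled at 0 min, below the 46.8% median of all genes. Zfp365, a gene linked to genome stability (chr10:67886103-67912662, minus strand), differed from them, with 85.3%, 68.6%, 84.5%, 66.6%, 56.9% and 56.1%. It kept the largest share of all reported members at 150 min (posterior 5% to 95% range 52.2% to 59.9%), and its decay rate of 0.165 ± 0.0892 per h was not called (limma adjusted p = 0.133). On the logit scale it was called.

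The T>C rate, conversions divided by covered T positions, does not pass through the authors' posterior model. Pooled over the reported members it was 7.33%, 3.52%, 7.28%, 2.89%, 1.34% and 0.884% from 0 to 150 min. The rate pooled over all genes was 4.05%, 2.69%, 4.11%, 2.57%, 1.55% and 1.17%, so the members were above it through 90 min and below it in the last 2 libraries. The T>C rate fell in 114 of the 116, beside 66.9% of all genes tested, and rose in 0, as in 0% of all genes (limma). With the 30 and 60 min times exchanged 114 fell, beside 87.9% of all genes, and without the 150 min library 100 fell, beside 23.6%. All 112 members called by the share were called by this measure too, and so were Zfp277 (adjusted p = 0.0236) and Zfp365 (limma adjusted p = 0.0242). The median half-life was 42.6 min, shorter than from the share, and background conversions were not subtracted. Both measures come from the same reads, and across the 116 members their slopes had a Spearman correlation of 0.942.

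The share at 0 min gives another estimate, since at steady state a gene with fast turnover is nearly fully labelled after 4 h. From that value alone the median half-life of the members that fell was 84.3 min, against 56.2 min from the washout, and for all genes that fell it was 144 min. Across the 116 members the decay rate and the share at 0 min had a Spearman correlation of 0.448. The 0 min library enters both values.

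Features of the genes were compared with the decay rate as a description. The KRAB codons were found in 65 of all 129 members, by a short pattern that can miss a KRAB domain. The 59 reported genes with them all fell, with a median half-life of 58.4 min, and of the 57 without them 53 fell, with 54.6 min. Finger patterns were counted in the annotated coding sequences. Of the 18 reported genes with 0 to 4 patterns, 14 fell, and every reported gene with 5 or more fell, 31 with 5 to 9 and 67 with 10 or more. The 4 without a called fall have few fingers: Zfp185 and Zfp365 have 0, and Zfp106 and Zfp277 have 3. Zfp142, with the most patterns (36), fell from 88.1% to 7.6% with a half-life of 43.8 min. The median half-lives of the 3 classes were 62.7, 53.5 and 56.5 min, and the Spearman correlation of the rate with the number of patterns was 0.183 (116 members).

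The difference between carriers of the AU-rich nonamer printed above and other members was not tested. Of the 14 carriers 13 fell, with half-lives from 41.8 min (Zfp113) to 63.1 min (Zfp143) and a median of 51.9 min. Of the 102 genes without the nonamer 99 fell, with a median of 59.8 min and a range from 28.3 to 132.6 min. In the unweighted fit, half-lives of called members were under 60 min in 12 of the 14 carriers and in 50 of the 102 others. With posterior weights no member was under 60 min. Zfp11, with 4 overlapping or separate copies, had 46.4 min, and Zfp365, with 2 copies, was not called. The density of the shorter element ATTTA was 2.20 per kb of 3' UTR in the members (median over 111 with at least 100 nt) and 1.38 per kb in all genes. Across those 111 members it had a Spearman correlation of 0.0539 with the decay rate. Correlations with 3' UTR length (0.131), gene span (-0.231), number of exons (-0.221) and mean reads (-0.123) were weak, and all points share the same 6 libraries.

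Many members lie beside each other on their chromosomes. The positions alone gave 4 runs of at least 5 members with gaps of at most 250 kb. The first (chr7:24081924-24316666) holds 10 members, of which 8 were reported, with a median half-life of 89.2 min and a median share of 29.0% at 150 min. In it Zfp235 and Zfp93 had 54.6 and 60.7 min, and Zfp109, Zfp112, Zfp111, Zfp180, Zfp61 and Zfp94 had 84.3 to 109 min. The run on chromosome 13 (67490167 to 67827002) also had a long median of 89.1 min over 5 genes, with Zfp65, Zfp87 and Zfp273 at 89.1 to 98.9 min and Zfp58 and Zfp85 at 50.8 and 60.3 min. The second run on chromosome 7 (29768552 to 30169750, 9 reported) had a median of 56.5 min and included Zfp146 at 45.2 min beside Zfp74 at 105 min. The run on chromosome 17 (21423227 to 21769342, 5 genes) had 58.4 min and ranged from Zfp54 at 43.2 min to Zfp52 at 111 min. Over the 85 members that fell outside the runs the median was 52.0 min. Genes of a run can be near copies and are not independent of each other.

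**Figure D4:**
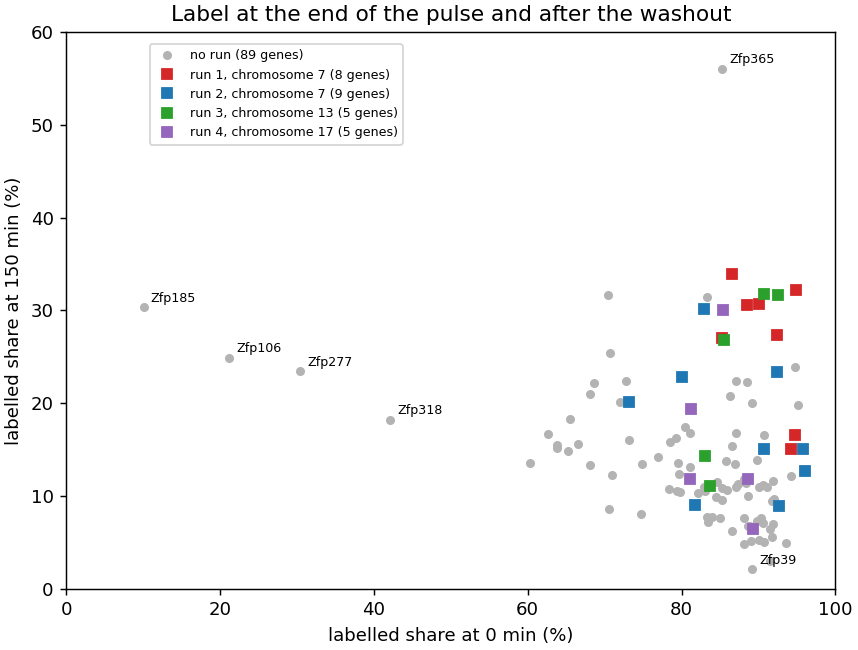
Labelled share at 150 min (%, y axis) against that at 0 min (%, x axis) for the 116 reported members, with the 4 runs of neighbours coloured. Run 1 sits at 85.2% or more at 0 min and has a median of 29.0% at 150 min, while the 89 members outside the runs have a median of 11.8%.

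Shared sequence could split or mix the reads of copies. Of the reported members, 31 shared at least 1 window of 81 nt with another gene, and 10 shared at least 10% of theirs, led by Zfp82 (94.3%, with Gm26920), Zfp97 (73.4%, with Zfp960) and Zfp58 (49.5%, with Gm26965). Values of these 3 are uncertain. The 10 had a median half-life of 62.7 min, and the 85 members with no shared window had 53.2 min, of which 82 fell. Of the 33 with an annotated gene on the opposite strand, 32 fell, with a median of 59.9 min. The strand setting was not given in the sources used here, and reads of a gene and its antisense partner may be mixed. Such partners overlap Zfp39, Zfp52, Zfp74, Zfp106, Zfp131, Zfp142, Zfp143, Zfp219, Zfp266, Zfp273, Zfp292, Zfp296, Zfp318, Zfp335, Zfp346 and Zfp384, among others. The 71 without any overlapping gene gave 69 that fell and a median of 54.6 min.

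Total reads were tested because a half-life from a share takes the level of a gene as constant. No member and none of the 14389 genes tested passed (0%; edgeR quasi-likelihood test, adjusted p below 0.05). The smallest adjusted p among the members was 0.0977. At an unadjusted p under 0.05, 19 members had a positive slope, beside 12% of all genes, and 4 a negative one, beside 10.5%. Point estimates were positive in 96 of the 116, beside 49.5% of all genes, with a median of 0.10 log2 units per h over the members and -0.0018 over all genes. Among the Zfp genes numbered 400 and above, 147 of 185 were positive, also with a median of 0.10, so this is not particular to the members. Changes in either direction at an unadjusted p under 0.05 made up 22.6% of all genes. DESeq2 called 4 members, beside 4.89% of all genes. Zfp131, Zfp266 and Zfp397 rose by that test, beside 2.24% of all genes, and Zfp28 fell. With the 30 and 60 min times exchanged, edgeR called 22 members, 18 of them upward, and 2880 genes in all. In bulk nuclei fewer cells of a type and less RNA per cell cannot be told apart.

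Zfp131 (chr13:119765187-119790889, minus strand) had the smallest edgeR p, with 47.5, 49.1, 45.2, 61.5, 69.7 and 68.6 CPM from 0 to 150 min. Its last 3 libraries lay above its first 3, and its slope was 0.26 ± 0.07 log2 per h (SE). Zfp266 (chr9:20495068-20521417, minus strand) had 66.2, 77.5, 57.5, 93.9, 95.4 and 106 CPM, with the same order of early and late libraries and a slope of 0.28 ± 0.08. Zfp383 (chr7:29908223-29916813, plus strand), at only 5.56 to 10.4 CPM, had the steepest positive slope, 0.31 ± 0.08. Zfp397 went from 42.3 to 66.2 CPM with 0.26 ± 0.08. Zfp28 (chr7:6383295-6396915, plus strand) had 20.4, 25.7, 30.9, 23.7, 14.4 and 10.2 CPM, highest at 60 min and lowest in the last 2 libraries, with -0.45 ± 0.16. Their half-lives of label were 52.9 min (Zfp131), 69.3 min (Zfp266), 55.9 min (Zfp383), 52.7 min (Zfp397) and 62.6 min (Zfp28). Computed on labelled abundance, the share times the CPM, 111 members fell, beside 47.5% of all genes, and the median rate was 0.647 per h, beside 0.232.

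**Figure D5:**
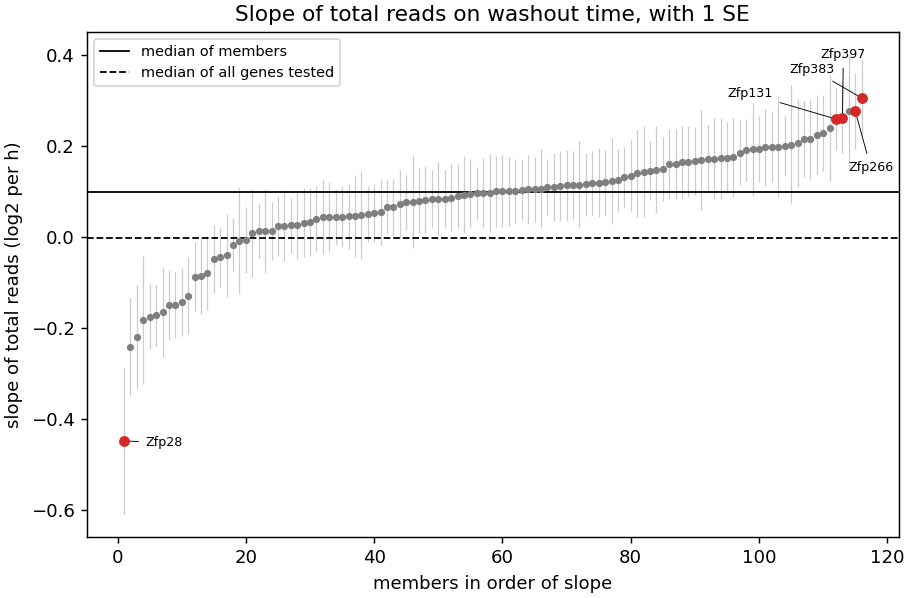
Slope of total reads on washout time (log2 per h, y axis) for the 116 reported members in order (x axis), with bars of 1 SE. The median of the members, 0.10, lies above that of all genes tested, -0.0018, and red points are the 4 genes with the smallest edgeR p and Zfp28. Zfp genes numbered 400 and above, not drawn, also had a median of 0.10.

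The genes of the KAP1 pathway, through which KRAB proteins act, were taken from a list of 41 co-repressors, methyltransferases and partners. Of these 20 fell, 0 rose and 21 were not called, beside 52.3% falling among all genes, and their median decay rate was 0.208 per h, beside 0.715 for the Zfp genes. Trim28 itself, the gene of KAP1, had shares of 34.1%, 37.9%, 29.1%, 38.5%, 32.0% and 26.6% and was not called (limma adjusted p = 0.468). Setdb1 fell (limma adjusted p = 0.00307) from 54.3% to 21.8% with a half-life of 114 min, and its partner Atf7ip from 79.6% to 15.8% with 65.8 min. The shortest half-lives were those of Gatad2b of the NuRD complex (57.4 min), the SUMO ligase Pias1 (58.8 min) and the methyltransferase Suv39h1 (62.4 min). The DNA methyltransferases Dnmt1, Dnmt3a, Dnmt3b and Dnmt3l had shares of 16.02% to 28.1% at 0 min and were not called, nor were Hdac1, Hdac2, Uhrf1 and Dppa3. Without the 150 min library 10 of the 41 fell, beside 31.3% of all genes, and with posterior weights 13 fell, beside 25.7%.

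Members near the minimum of 100 reads had like shares on both sides of it. Just above it, Zfp316 (100.3 reads on average) went from 74.9% to 13.5%, Zfp3 (106 reads) from 83.1% to 10.6% and Zfp94 (114 reads) from 86.5% to 34.0%. Just below it, Zfp395 (96.3 reads) had 59.5% at 0 min and 15.7% at 150 min, Zfp202 (95.2 reads) 70.2% and 11.7%, and Zfp128 (94 reads) 81.4% and 12.3%. All 13 below the minimum had 59.5% to 95.04% at 0 min and 8.96% to 39.4% at 150 min. Zfp366 was the lowest of them, and its shares rest on 0 to 3 reads per library.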

How the data were processed

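Nuclear RNA from 6 cultures, 1 per washout time, was compared over time. The submitters' processing notes name STAR 2.5.2b and mm10. What made the per-gene table, with which annotation and conversion rate, was not given in the sources used here. The authors deposited, per the file headers, read counts per gene, T>C conversion counts, counts of T positions read (with 4 significant digits), and the labelled fraction with its posterior quantiles. They also deposited the alpha and beta parameters of that posterior, score values used here only as weights. A further 6 columns of per-sample values were not used. The time of each column was inferred from the number in its name.

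A slope of the natural log of the fraction on hours was fitted with limma 3.58.1 (R 4.3.3) over 11462 genes with at least 100 mean reads and a fraction above 0 in every library, leaving 4 residual degrees of freedom, and p-values were adjusted by Benjamini-Hochberg over all of them with a threshold of 0.05. The variance of each gene was moved toward a value estimated from all genes fitted (eBayes), and the limma p-values and SEs use that variance. The T>C rate was fitted likewise over 11459 genes. Total counts were tested for a slope with edgeR 4.0.16 (quasi-likelihood, TMM, filterByExpr) over 14389 genes, and with DESeq2 1.42.0 as an alternative. CPM are TMM scaled, and levels between genes were set per kb of the table's gene length. The scripts were tested on simulated data with independent scatter for each gene and library. Scatter shared by genes within a library was not simulated, so its effect on the calls was not tested. With 1 library per time, the number of libraries and not their depth (18558073 to 28535162 reads) limits precision, and posterior quantiles cover counting error within a library only.

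All 129 members matched the GENCODE M21 annotation of mm10, from which positions, sequences and features were taken. No protein table was used, so fingers (C, 2 to 4 residues, C, 12 residues, H, 3 to 5 residues, H) and the KRAB A box were searched as in-frame codons. The KRAB search used short residue patterns in a single coding transcript per gene, so genes without a match may still encode a KRAB domain.

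Named genes were those of 3 role lists, the 6 shortest and 6 longest half-lives with at least 200 mean reads, members that rose or were not called, the 5 with most reads per kb, the 3 nearest to either side of the minimum, those with most and fewest fingers, and the 4 with the lowest edgeR p. Zfp28, and the genes named within runs of neighbours, the shared-sequence groups and the nonamer sites, were chosen after their values were seen. The members and lists were chosen with earlier results of these data known.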

Additional observations from a re-analysis of the deposited data

How the results depend on the processing

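Alternatives for the fraction were the posterior mode, its logit, weights from the posterior variance, labelled abundance, an added 0.01, a minimum of 300 reads or none, the 30 and 60 min times exchanged, and each library left out. The number of members that fell was 80 with posterior weights and 109 to 113 in the other fits with all 116; with the minimum of 300 reads it was 78 of 82. The median rate was 0.4004 per h with posterior weights and 1.4 per h on the logit scale, where it is the loss of the odds of label. Without 1 library it ranged from 0.62 to 0.813 per h, with a jackknife SE of 0.137. Of the 41 KAP1 genes 13 fell with posterior weights, and 10 (without 150 min) to 21 (without 90 min) with a library left out. The T>C rate fell in 100 (without 150 min) to 114 of 116 members, and in 80 of 82 with the minimum of 300 reads. For total reads, DESeq2 called 4 members and edgeR 22 with the times exchanged, and 0 to 4 with a library left out (1 without 0 min, 4 without 60 min). Over all genes edgeR called 1372 without 60 min, 43 without 0 min and 3 without 30 min, and 174 upward and 225 downward with no filter except a count above 0. Over all genes, 3582 fell without 150 min and 2950 with posterior weights, beside 5996. Of 40 called named members, 27 kept their call and direction under every alternative run for them (Zfp352, Zfp189, Zfp273, Zfp316, Zfp3 and Zfp383 lie under the minimum of 300 reads), and 13 lost the call in at least 1, of which 12 with posterior weights. Zfp106, never called, changed sign on labelled abundance (0.0603 per h). The cause of these shifts was not tested. No washout time had a replicate. All genes were measured in the same 6 libraries, and differences between genes within libraries were not fitted. Half-lives whose ranges at 1 SE overlap are not told apart by these fits, which take each gene alone. Where such ranges do not overlap, the difference between the genes was not tested. Of 111 neighbouring pairs in the order of decay rate, 0 differed by more than their combined SE. Neighbours in a sorted list are close by construction, so this count does not measure how well the order is resolved.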
